A study of Mus musculus with 6 samples.

Results

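The X-linked gene Igsf1 and 6 genes of pituitary hormones (Gh, Prl, Cga, Tshb, Lhb and Pomc) were followed through forebrain RNA. These 7 genes were taken by symbol from the 23282 entries of the count tables, and each had 1 row. They were chosen by their read counts in the WAS and control groups of these same libraries, Igsf1 also because it stands in the study's own list of changed genes, so their levels by group are given as a description without a test. The samples were 1 forebrain hemisphere each from 6 adult male C57BL/6J mice, without olfactory bulb and cerebellum. Of these mice, 3 were labelled as exposed for 1 h to water avoidance stress (WAS), in which the animal stands on a small platform surrounded by water, and 3 were labelled as its control, kept for the same time on that platform with no water around it. Tissue was taken at once after the procedure, and the libraries were made by QuantSeq 3′ mRNA-Seq, which reads the end of polyadenylated transcripts.
The WAS-labelled libraries held between 9248520 and 10067053 reads and the control-labelled ones between 9977945 and 10502029. The heading of the count column began with WC in the WAS-labelled libraries and with WS in the control-labelled ones, and no source used here defines these letters. The sources conflict on which libraries came from stressed mice, since the study's own table of changed genes gives Igsf1 the direction opposite to the sample labels, as it would be if WS were read as stress and WC as control. Groups follow the labels here, so that every direction below may be inverted relative to the exposure. The summed level of 8 forebrain neuron genes was 6683, 7326 and 6630 CPM (the count scaled to a library total of 1000000 reads) in WAS replicates 1, 2 and 3, below each of the controls with 7921, 8277 and 7870 CPM. The libraries differed in genes of the choroid plexus. Ttr, the transthyretin gene of the choroid plexus, lay at 364 counts in WAS replicate 1 and 114 in control replicate 2, against 8874 to 12599 in the other 4 libraries.

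The anterior pituitary makes growth hormone (Gh), prolactin (Prl), thyrotropin, the gonadotropins and the peptides of proopiomelanocortin (Pomc), each in its own cell type and under control of the hypothalamus. Thyrotropin and the gonadotropins share the alpha subunit encoded by Cga and differ in their beta subunit, which is Tshb for thyrotropin and Lhb for luteinizing hormone. Igsf1 encodes a membrane glycoprotein of the immunoglobulin superfamily that is abundant in the pituitary, and loss of its function in humans causes central hypothyroidism. Apart from Pomc, which neurons of the hypothalamic arcuate nucleus also transcribe, these hormone genes are not typical transcripts of forebrain tissue.

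In GRCm38, the assembly named mm10 in the submitters' processing notes, GENCODE M21 places Igsf1 at chrX:49782536-49797749 on the minus strand, with 20 exons in its longest coding transcript. The last 500 bases of the longest transcript of each of the 7 genes shared no run of 50 bases with any transcript of a different gene. Lhb (chr7:45420820-45421897) overlaps Ruvbl2 at its end, Cga (chr4:34893779-34907370) overlaps Platr9, Tshb (chr3:102775465-102782718) lies inside Tspan2, and Prl (chr13:27057570-27065205) overlaps Gm47888, each on the opposite strand. The counting is not stated to use strand, so reads of these pairs may not be told apart. Ruvbl2 had 27 to 51 counts and Tspan2 691 to 828 counts in a library. Gh (chr11:106300271-106301865) and Pomc (chr12:3954951-3960642), like Igsf1, overlap no other gene.
The RefSeq promoter table (GRCm38.p6) held 6 of the 7 genes, without Gh. The 120 bases before the start site are shown for 4 hormone genes, which share a feature that Igsf1 lacks. Capitals mark TATAAA, the letters of a TATA box, on the strand of the gene, and in Prl also TATNCAT, the letters bound by the pituitary factor POU1F1, searched on both strands.
Prl: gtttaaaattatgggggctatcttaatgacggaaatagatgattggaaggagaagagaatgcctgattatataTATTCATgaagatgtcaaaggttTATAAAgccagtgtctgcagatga
Cga: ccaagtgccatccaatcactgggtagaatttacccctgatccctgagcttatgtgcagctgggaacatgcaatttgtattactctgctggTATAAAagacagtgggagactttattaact
Tshb: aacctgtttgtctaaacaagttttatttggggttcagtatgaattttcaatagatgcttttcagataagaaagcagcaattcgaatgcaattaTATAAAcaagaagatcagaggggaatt
Pomc: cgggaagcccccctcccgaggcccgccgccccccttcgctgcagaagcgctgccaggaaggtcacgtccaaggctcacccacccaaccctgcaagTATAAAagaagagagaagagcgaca
Igsf1: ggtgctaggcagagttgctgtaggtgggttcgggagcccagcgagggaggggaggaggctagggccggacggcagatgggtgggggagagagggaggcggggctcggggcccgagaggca
These stretches lie at chr13:27057450-27057569 (plus strand) for Prl, chr4:34893659-34893778 (plus) for Cga, chr3:102782715-102782834 (minus) for Tshb, chr12:3954825-3954944 (plus) for Pomc and chrX:49797746-49797865 (minus) for Igsf1. Within the 250 bases before the start, TATAAA stood in all 5 hormone genes in the table, beginning between 24 and 31 bases before the start (Tshb has a further match farther upstream), and in 0 of the 3 start sites listed for Igsf1. It occurred in 7.59% of the 32851 promoters in the table. TATNCAT or its reverse ATGNATA occurred in 7.92% of them and, of these genes, only in Prl, with 2 matches. TAATCC or its reverse GGATTA, the letters bound by the pituitary factor PITX1, occurred in 6.25% of all promoters and at 1 of the 3 start sites of Igsf1. A match of letters is a description of the sequence and no measure of binding.

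Of the 7 genes, only Igsf1 exceeded 50 counts in a library. In WAS replicates 1, 2 and 3 it had 122, 66 and 145 counts, and in control replicates 1, 2 and 3 it had 25, 10 and 59. This corresponded to 12.1, 7.14 and 14.5 CPM in the WAS-labelled libraries and to 2.38, 0.963 and 5.91 CPM in the control-labelled ones. Every WAS-labelled library lay above every control-labelled library, but the lowest of the former, WAS replicate 2, exceeded control replicate 3 by only 1.22 CPM.
The mean Igsf1 level was 11.3 ± 3.77 CPM (SD, n = 3) in the WAS-labelled libraries and 3.09 ± 2.55 CPM (SD, n = 3) in the control-labelled ones, a ratio of 3.65 in the direction of the labels. The summed forebrain neuron genes also separated the groups, in the other direction, and their part in the Igsf1 difference was not tested. Of these 8 genes, Syt1, Camk2a and Slc17a7 separated the groups singly and were lower under WAS labels. Snap25, Gad1, Gad2, Neurod6 and Bcl11b overlapped, and Gad2 alone had a positive log2 fold change (0.11). The log2 fold change of Igsf1 fitted by edgeR was 1.83 with a standard error of 0.48. Leaving out control replicate 3 raised it to 2.72, and leaving out control replicate 2 lowered it to 1.41. In order of level, WAS replicate 3 and WAS replicate 1 had overlapping counting intervals (95% Poisson limits of 12.3 to 17.1 and 10.1 to 14.5 CPM), as had WAS replicate 2 and control replicate 3 (5.52 to 9.08 and 4.50 to 7.63 CPM). Control replicate 1 (1.54 to 3.51 CPM) and control replicate 2 (0.462 to 1.77 CPM) overlapped as well. Poisson limits cover counting error only, since reads without molecular identifiers are not independent molecules. The highest library exceeded the lowest 15.1-fold, and within the control group the SD was 82.6% of the mean.
Of the 15239 genes tested, 8.42% had all WAS-labelled libraries above all the control-labelled ones. Igsf1 and Pomc were among these genes. Counted in either direction, the groups did not overlap in 12.2% of the genes tested.

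**Figure D1:**
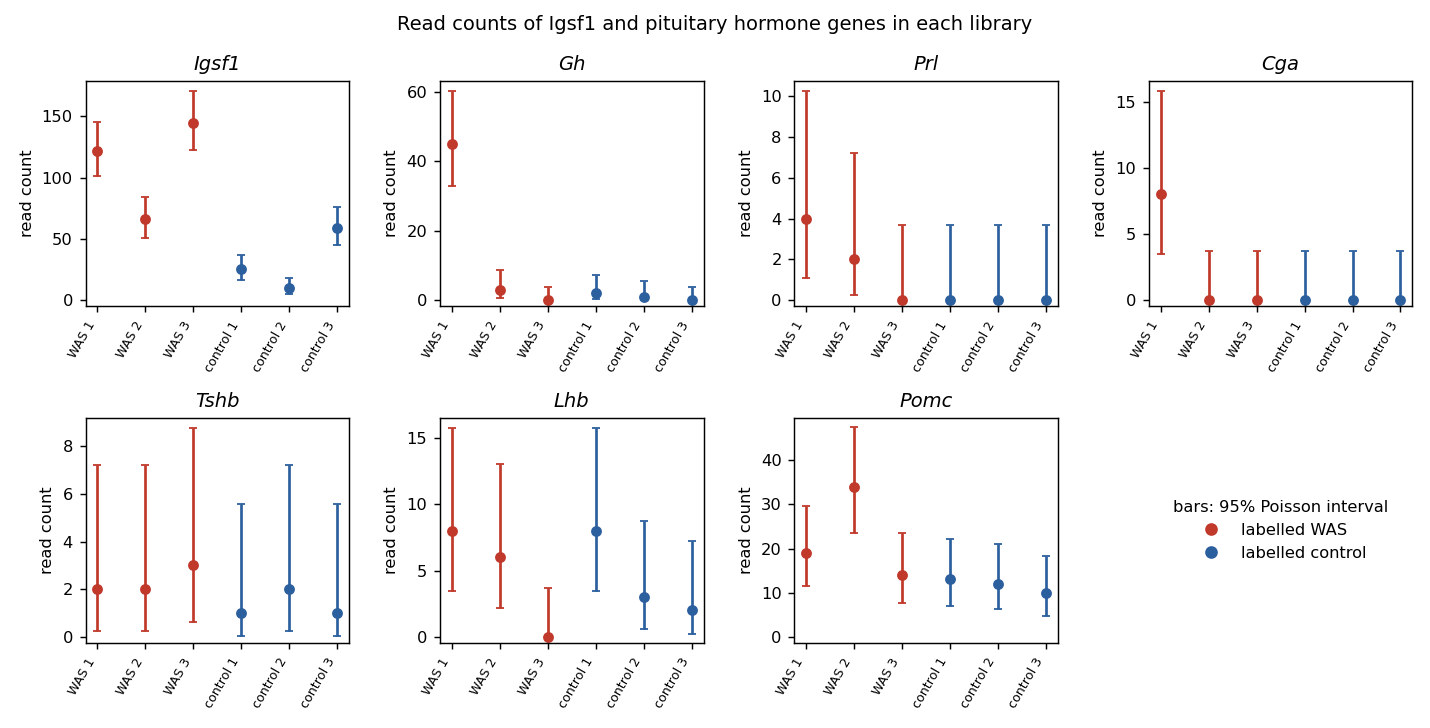
Read count (vertical axis, linear, scaled for each gene) of the 7 genes in the 3 WAS-labelled libraries (red) and the 3 labelled control (blue), with 95% Poisson intervals. Igsf1 is spread over all libraries with 10 to 145 counts, Gh stands out at 45 counts in WAS replicate 1 alone, and Prl, Cga and Tshb hold 0 to 8 counts in each library.

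The hormone genes were near the limit of detection. Of the 36 values of the 6 hormone genes in 6 libraries, 24 were at 3 counts or fewer and 12 were at 0. A count of 0 allows a level of up to 0.286 to 0.324 CPM, depending on the depth of the library (3 counts of its total, a 95% limit on 1 side), while the Poisson limits on both sides used for single libraries end at 3.69 counts. Besides Igsf1, only Lhb and Pomc passed the filter on low counts, so 3 of the 7 genes entered the fit and no fold change is given for the other 4.
Growth hormone transcripts came almost entirely from 1 library. Gh had 45, 3 and 0 counts under WAS labels (replicates 1, 2 and 3) against 2, 1 and 0 under control labels, so that 88.2% of its 51 counts lay in WAS replicate 1. The level in WAS replicate 1 was 4.47 CPM, with 95% Poisson limits of 3.26 and 5.98, above the upper limit of each other library, of which the highest was 0.948 CPM. The groups overlapped, with 0 counts in WAS replicate 3.
Prolactin, which is related in sequence to growth hormone, was at 4, 2 and 0 counts in the WAS-labelled libraries and at 0 in each control library. The alpha subunit gene Cga was detected only in WAS replicate 1, with 8 counts, and was at 0 in the other 5 libraries. The same library thus held the most reads of Gh, Prl and Cga, and Pitx1, a transcription factor gene of pituitary cells, was also highest there, its counts being 8, 0 and 1 against 0 in every control. WAS replicate 3, which held the most Igsf1 reads, had 0 counts of Gh, Prl, Cga and Lhb.
Reads of the beta subunit genes were spread over more libraries. Tshb, the beta subunit of thyrotropin, had 2, 2 and 3 counts in the WAS-labelled libraries and 1, 2 and 1 in the control-labelled ones. The groups overlapped in counts and were separated in CPM only through the depth of the libraries. Lhb, the beta subunit of luteinizing hormone, had 8, 6 and 0 counts against 8, 3 and 2. Its groups overlapped, and its mean was 0.481 ± 0.423 CPM (SD, n = 3) in the WAS-labelled libraries and 0.417 ± 0.302 CPM (SD, n = 3) in the control-labelled ones. The fitted log2 fold change of Lhb was 0.15 with a standard error of 0.91 and ran from -0.22 on quantile-normalized log2 counts to 0.73 without WAS replicate 3.
Pomc, the precursor gene of corticotropin, melanocyte-stimulating hormones and beta-endorphin, was detected in every library. Its counts were 19, 34 and 14 in the WAS-labelled libraries and 13, 12 and 10 in the control-labelled ones. The levels were 1.89, 3.68 and 1.40 CPM against 1.24, 1.16 and 1.00 CPM, so the groups did not overlap but WAS replicate 3 and control replicate 1 lay close together. The mean was 2.32 ± 1.198 CPM (SD, n = 3) in the WAS-labelled libraries and 1.13 ± 0.120 CPM (SD, n = 3) in the control-labelled ones. The log2 fold change of Pomc was 0.99 with a standard error of 0.46, and it was 0.50 without WAS replicate 2, the library with the most Pomc reads. The libraries highest in Igsf1 (WAS replicate 3), Gh (WAS replicate 1) and Pomc (WAS replicate 2) were thus different ones.

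Genes that define pituitary endocrine cells were looked for beside the hormones. Of 12 markers, the transcription factor genes Pou1f1 and Tbx19, the growth hormone-releasing hormone receptor gene Ghrhr and Fshb, the beta subunit of follicle-stimulating hormone, were at 0 in all 6 libraries. The summed level of the 12 markers was 9.34, 5.08 and 1.80 CPM in the WAS-labelled libraries, by replicate, against 2.67, 1.73 and 1.30 CPM. For the 6 markers that are none of the 7 genes, the sum was at most 0.795 CPM, in WAS replicate 1. In bulk tissue, fewer cells of a type and less RNA per cell cannot be told apart.
Igsf1 did not have the order of these markers over the libraries. WAS replicate 3 was highest for Igsf1 with 14.5 CPM and had 1.80 CPM of summed pituitary markers, less than control replicate 1 with 2.67 CPM, where Igsf1 was at 2.38 CPM. With WAS replicate 1 left out, the library of most Gh reads, the log2 fold change of Igsf1 was 1.78.
Markers of other tissues also varied between the libraries. The summed level of 7 hypothalamic genes (Avp, Oxt, Pmch, Hcrt, Agrp, Ghrh and Trh) ranged from 8.21 to 18.7 CPM in the WAS-labelled libraries and was 2.76, 2.02 and 50.3 CPM in control replicates 1, 2 and 3, none of the 7 being at 0 in all libraries. In WAS replicates 1 and 2 and control replicate 3 most of it was Oxt, the oxytocin gene, with 105, 130 and 33 counts against 6, 3 and 445. Within the control libraries, Igsf1 and Oxt had the same order, but WAS replicate 3 had the least Oxt and the most Igsf1 of the WAS-labelled libraries. The part of these tissues in the level of Igsf1 was not tested. Summed choroid plexus markers (13 genes, none at 0 throughout) ran from 324.9 to 1732 CPM and from 310.3 to 1815 CPM, with the lowest values in WAS replicate 1 and control replicate 2. These 2 libraries held the second highest and the lowest Igsf1 level, and without both of them the log2 fold change of Igsf1 was 1.35.

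**Figure D2:**
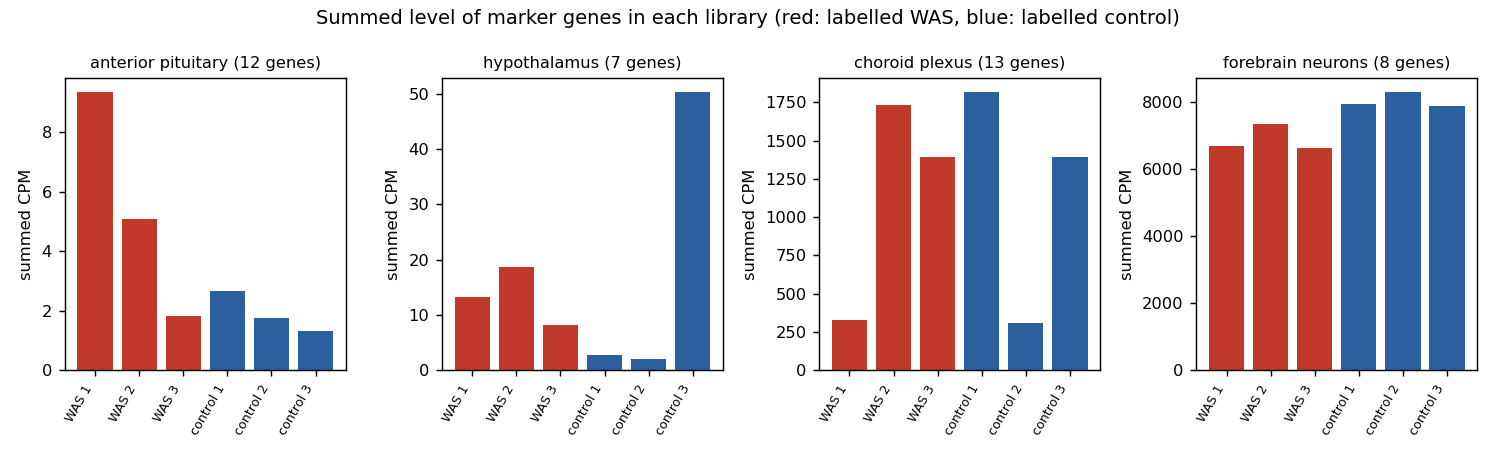
Summed CPM (vertical axis, linear from 0) of 4 marker lists in each library, red for labelled WAS and blue for labelled control. The pituitary sum is highest in WAS replicate 1 (9.34 CPM), the hypothalamic sum in control replicate 3 (50.3 CPM), and the choroid plexus sum is low in WAS replicate 1 and control replicate 2.

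Around Igsf1 on the chromosome, 5 of the 10 nearest genes of the RefSeq table were in the count tables. The olfactory receptor genes Olfr1320, Olfr1321, Olfr1322 and Olfr1323 were at 0 in every library. Arhgap36 had 21, 20 and 32 counts in the WAS-labelled libraries and 3, 2 and 27 in the control-labelled ones. Its groups overlapped through control replicate 3, which also held the most Igsf1 of the controls. The log2 fold change of Arhgap36 was 1.19 with a standard error of 0.74 and an adjusted p = 0.797 in edgeR (quasi-likelihood, Benjamini-Hochberg), the unadjusted p being 0.134. Without control replicate 3, Arhgap36 passed the criteria of the study, which are a change of 1.5-fold or more with p below 0.05 before adjustment.
The 5 genes whose log2(CPM + 1) was most like that of Igsf1 over the 6 libraries were Rassf6, Zfp750, Usp20, Tmc7 and Rpl36a, with Pearson correlations from 0.986 to 0.995. These values rank 15238 genes over 6 points that share depth and tissue content, and are a description. Rassf6 had 10, 7 and 13 counts against 3, 0 and 6. Usp20 varied far less than Igsf1, from 43.9 to 56.1 CPM, although its order was the same. None of the hormone genes that were tested stood near the top, with Pomc at rank 4898 and Lhb at rank 9728.

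The genes that act before, beside and after these hormones were compared in 13 lists of 121 genes in all, of which 82 were tested. At the criteria of the study, 5 of the 82 were called, 4 of them higher and 1 of them lower under WAS labels. Of all 15239 genes tested, 2.49% were called, 1.82% higher and 0.676% lower. No gene of the series passed an adjusted p of 0.05 in edgeR's test, where 1104 had an unadjusted p under 0.05, and DESeq2 gave 22 genes past that adjusted threshold and limma 0. The 5 calls are therefore calls at an unadjusted p, and 3 of them (Trhr, Mc4r and Acvr2b) were lost when both libraries of low Ttr, WAS replicate 1 and control replicate 2, were left out.
Of the genes of thyroid hormone supply and action, 14 of 18 were tested, 2 were called higher and 1 lower, with a median log2 fold change of -0.043 against 0.0009 for all genes. Dio3, the deiodinase that inactivates thyroid hormone, had 42, 14 and 51 counts in the WAS-labelled libraries and 6, 11 and 12 in the control-labelled ones. The groups did not overlap. The order within the WAS-labelled libraries (replicate 3, then 1, then 2) was that of Igsf1, but among the controls Dio3 was lowest in replicate 1 and Igsf1 in replicate 2. By likeness to Igsf1 over all 6 libraries, Dio3 ranked 693 of 15238 genes. Crym (rank 154) and Trh (rank 456), of the same list and not called, were more like Igsf1. The log2 fold change of Dio3 was 1.89 with a standard error of 0.51 (adjusted p = 0.514 in edgeR, unadjusted 0.00334), and Dio3 stayed called in all 14 alternative fits.
Trhr, the receptor of thyrotropin-releasing hormone, was at 3.97, 2.60 and 5.91 CPM against 2.38, 2.02 and 2.11 CPM. Its order matched that of Igsf1 within the WAS-labelled libraries and not among the controls, where Trhr was highest in replicate 1 and Igsf1 in replicate 3, and it ranked 989 by likeness. Its log2 fold change was 0.90 with a standard error of 0.35 (adjusted p = 0.632 by edgeR, unadjusted 0.0264). The call was lost when WAS replicate 3 (0.56), or else control replicate 2 (0.86) or 3 (0.89), was left out, and without both libraries of low Ttr (0.88). Hr, a nuclear corepressor gene that thyroid hormone induces in brain, was the gene called lower. It was at 8.44, 13.1 and 8.61 CPM against 22.3, 17.2 and 13.1 CPM, with a log2 fold change of -0.84 and a standard error of 0.23 (adjusted p = 0.514 by edgeR, unadjusted 0.00343), and WAS replicate 2 and control replicate 3 were nearly equal. Hr stayed called in all 14 alternative fits. The most abundant genes of the list, Klf9, a transcription factor gene that responds to thyroid hormone, and Ttr, a carrier of thyroid hormone, were not called, with log2 fold changes of -0.27 and -0.065. Thyrotropin-releasing hormone itself (Trh) had 13, 12 and 25 counts against 6, 0 and 22 and was not called.

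**Figure D3:**
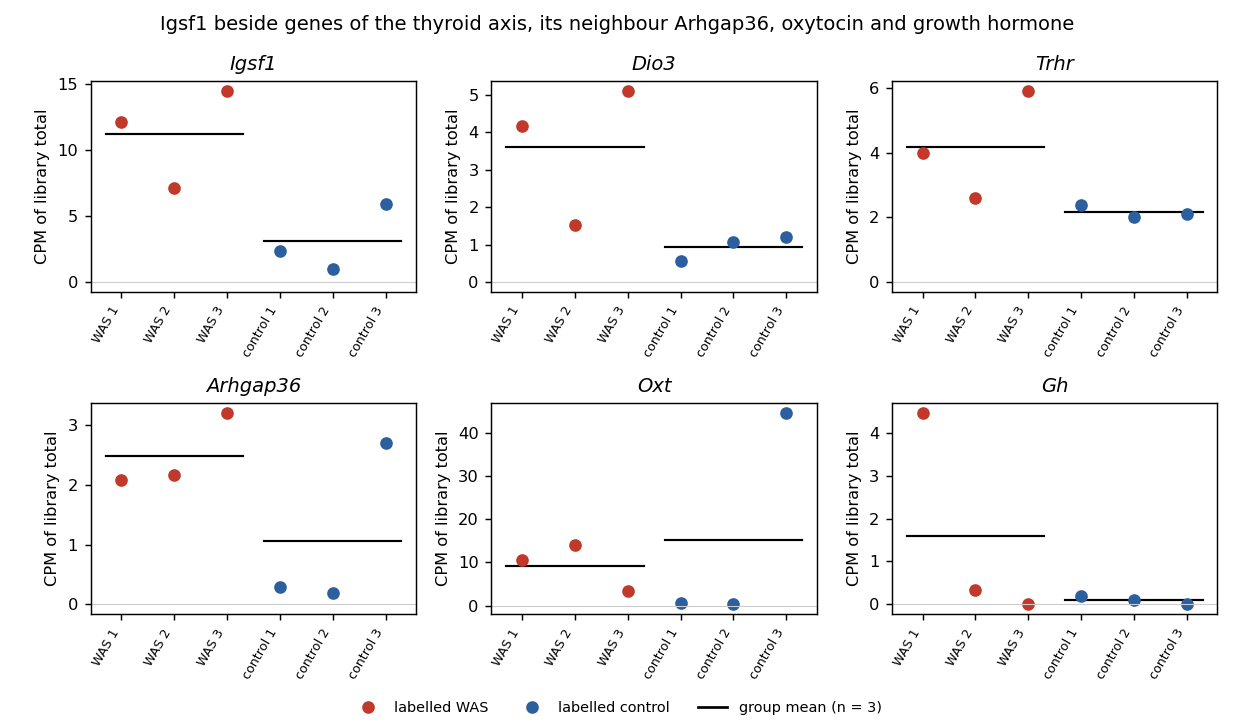
CPM (vertical axis, linear) of Igsf1, Dio3, Trhr, Arhgap36, Oxt and Gh in each library, red for labelled WAS and blue for labelled control, with the group mean as a black line. Igsf1, Dio3 and Trhr are each highest in WAS replicate 3 and next in WAS replicate 1 but differ in their order among the controls, while Oxt peaks in control replicate 3 (44.6 CPM) and Gh in WAS replicate 1 (4.47 CPM).

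Transcription factors that build the anterior pituitary were scarcely present. Of 13 such genes, 5 were at 0 in every library and 3 were tested, with 0 called and a median log2 fold change of 0.47. Of these, Gata2, which thyrotropes and gonadotropes share with neurons of the brain, was at 5.48 ± 0.948 CPM (SD, n = 3) against 3.80 ± 0.198 CPM (SD, n = 3), and Foxl2 at 1.01 ± 0.317 CPM (SD, n = 3) against 0.715 ± 0.214 CPM (SD, n = 3). Among 7 receptors for releasing hormones, 2 were tested. Trhr was called as described, and Crhr1, the receptor of corticotropin-releasing hormone that brain neurons also carry, had a log2 fold change of -0.49 with a standard error of 0.25 and was not called.
Of 15 hypothalamic peptides, 12 were tested and 0 called, with a median log2 fold change of -0.018. Sst, the somatostatin gene, whose peptide inhibits growth hormone release and which cortical interneurons also transcribe, was at 299.6 ± 7.12 CPM (SD, n = 3) against 293.4 ± 16.8 CPM (SD, n = 3), and Npy at 134.8 ± 43.3 CPM (SD, n = 3) against 170.6 ± 20.5 CPM (SD, n = 3). The 6 genes that process prohormones were all tested with 0 called. Among them, Cpe and Pcsk2, which encode carboxypeptidase E and prohormone convertase 2, had log2 fold changes of 0.15 and -0.32.
Of 11 receptors of the pituitary hormones, 4 were tested and 1 was called. Mc4r, the receptor through which melanocortin peptides of Pomc reduce feeding, was at 9.74, 5.51 and 5.21 CPM against 4.19, 3.28 and 3.91 CPM. Its log2 fold change was 0.81 with a standard error of 0.29 (adjusted p = 0.615 by edgeR, unadjusted 0.0183), and the call was lost without WAS replicate 1 (0.46), control replicate 2 (0.72) or both (0.36). The prolactin receptor gene Prlr, which choroid plexus also expresses, had 93, 118 and 140 counts against 104, 10 and 135 and was not called. Control replicate 2, where Prlr was lowest, was also the lowest library for Igsf1 and Ttr, whereas WAS replicate 1 had 93 counts of Prlr with 364 of Ttr. The growth hormone receptor gene Ghr was at 6.42 ± 1.52 CPM (SD, n = 3) against 6.87 ± 0.349 CPM (SD, n = 3).

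The IGSF1 protein was once described as a binding protein of inhibin, so genes of inhibin and activin signalling were counted as well. All 11 were tested, 1 was called and the median log2 fold change was -0.13. The call was Acvr2b, an activin receptor gene, at 7.97 ± 0.840 CPM (SD, n = 3) against 4.95 ± 0.297 CPM (SD, n = 3), with a log2 fold change of 0.65 and a standard error of 0.21 (adjusted p = 0.570 by edgeR, unadjusted 0.0102). Without WAS replicate 1 the change was smaller than 1.5-fold (0.56), as it was without both libraries of low Ttr (0.58). Acvr2a and Acvr1c, the most abundant of the list, had log2 fold changes of 0.066 and -0.37 and were not called.
None of the 10 other Igsf genes was called. Of these, 7 were tested, with log2 fold changes between -0.46 and 0.35 and a median of -0.026. Igsf8, the most abundant, was at 203.6 ± 26.7 CPM (SD, n = 3) against 202.1 ± 16.5 CPM (SD, n = 3), and Igsf21 at 33.2 ± 2.67 CPM (SD, n = 3) against 40.7 ± 3.58 CPM (SD, n = 3). The tanycyte list, for the cells that line the floor of the third ventricle, had 5 of 8 genes tested and 0 called. Its most abundant genes were Dio2 and Col25a1, with log2 fold changes of -0.26 and 0.32, while Rax and Gpr50 had at most 6 and 2 counts in a library. Scn7a, also of the tanycyte list, ranked 59 of 15238 genes by likeness to Igsf1, nearest of the listed genes. Its groups did not overlap, and its log2 fold change was 0.58 with a standard error of 0.32. Neither the 14 choroid plexus genes (median 0.049) nor the 8 forebrain neuron genes (median -0.24) held a call. In the former, Ttr and Enpp2 were the most abundant, with Enpp2 at a log2 fold change of -0.083. In the latter, Syt1 and Camk2a were the most abundant, with log2 fold changes of -0.24 and -0.33 (edgeR unadjusted p of 0.00715 and 0.00198, adjusted p = 0.539 and 0.477), smaller than 1.5-fold, and neither gene's groups overlapped.

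**Figure D4:**
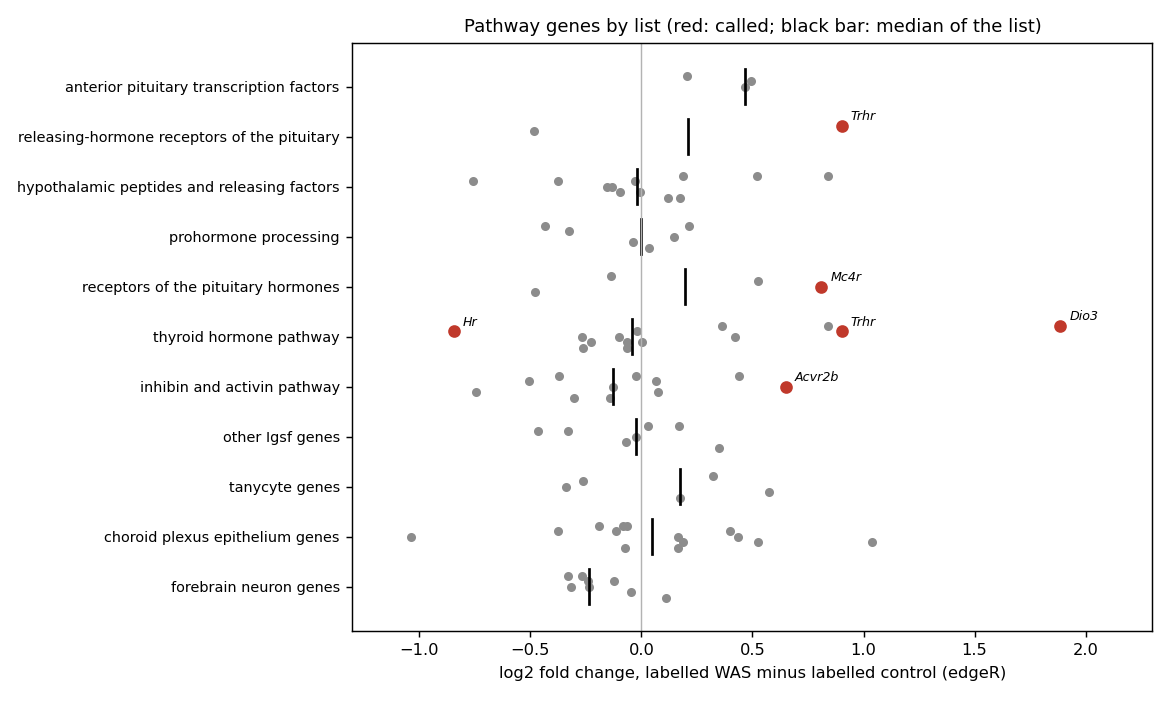
Log2 fold change (horizontal axis, labelled WAS minus labelled control) of the tested genes of 11 lists, 1 point per gene, with called genes in red and named and the median of each list as a black bar. Dio3 lies farthest to the right at 1.89, Hr is the 1 called gene to the left at -0.84, and Trhr appears in 2 lists.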

How the data were processed

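RNA from 1 forebrain hemisphere of each of 6 mice was sequenced. The authors made the deposited read counts from QuantSeq 3′ mRNA-Seq reads aligned by Bowtie2. Bedtools counted alignments of each gene, multiple ones included, and the submitters' processing notes name mm10. Tool versions and the annotation are not given in the sources used here. These counts are whole numbers, to which the quantile normalization of the study was not applied. Total counts lay between 9248520 and 10502029 per library, and intervals and floors cover counting error only.
Levels are CPM of the library total. All genes with a mean log2(quantile-normalized count + 1) of at least 2 were fitted with edgeR 4.0.16 in R 4.3.3 (TMM scaling, quasi-likelihood test, no block), with Benjamini-Hochberg adjustment over all genes tested, and the test was checked on simulated counts. Each standard error is the fitted log2 change over the root of its F value. Called genes changed 1.5-fold or more with p below 0.05 before adjustment. These cutoffs are those of the study, applied here to edgeR's p, since the study names no test for its own p. The alternatives were DESeq2 1.42.0, limma 3.58.1, other scalings and filters, a replicate block and libraries left out. Libraries with the same replicate number are different mice, and their deviations correlated at 0.060, 0.077 and 0.087. Repeated symbols (44 entries) stayed separate.
The genes and lists were chosen with earlier results of these data known. Named are the 7 genes, from each list the 2 of highest mean CPM and those called, and the 5 most like Igsf1. Pitx1, Oxt, Trh, Prlr, Ghr, Rax, Gpr50, Crym, Scn7a, genes at 0 and overlapping genes were named after their values were seen. The same holds for the forebrain neuron genes other than Syt1 and Camk2a.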

Additional observations from a re-analysis of the deposited data

How the results depend on the processing

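The log2 fold change of Igsf1 was above 0 in all 14 alternatives, from 1.35 to 2.72, and from 1.41 to 2.72 with 1 library left out in turn. The fit without both libraries of low Ttr was chosen after seeing the data. With 1 library left out, the study's criteria, applied to edgeR's p, were met by 264 to 825 genes of the series (380 with all libraries). An adjusted p of 0.05 was met by 0 to 491 genes, the highest counts both being without WAS replicate 2. DESeq2 gave 22 genes past that adjusted p. The replicate number as a block gave 49, although the numbers mark no shared animal and no pair of deviations correlated above 0.1. The count of 5 listed genes called was 9 with the replicate block, 12 with no filter on low counts, where more genes are tested, and 4 to 12 with 1 library left out, the highest when WAS replicate 2 was dropped, with 8 when control replicate 3 was. Arhgap36, not called with all libraries, was called with the replicate block and without control replicate 3. The cause of these shifts was not tested. Of the 5 listed genes, Dio3 and Hr kept their call in all 14 alternatives, Acvr2b in 12, Mc4r in 11 and Trhr in 10. The genes most like Igsf1 depended on single libraries, with 0 to 3 of the 5 shared when 1 was left out and 3 shared on quantile-normalized log2 counts. Depth limits Gh, Prl, Cga and Tshb, which held 3 counts or fewer in at least 5 of the 6 libraries.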

Other observations

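Among transcription factor genes of the lists, Lhx3 had too few counts to be tested. Lhx3, a factor of pituitary and of some brainstem and spinal neurons, had 3, 1 and 12 counts under WAS labels (replicates 1, 2 and 3) against 2, 0 and 0 under control labels. Otx2, a homeobox gene of choroid plexus and of midbrain and thalamic neurons, had 114, 56 and 139 counts against 80, 8 and 65, with a log2 fold change of 1.04, a standard error of 0.53 and an adjusted p = 0.728 by edgeR. It had its highest and lowest library in common with Igsf1. Both genes were picked after their values were seen, and the part of tissue content in them was not tested.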
